A study of Mus musculus with 4 samples.

Results

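Transcript levels were compared between whole male gonads of mouse embryos at embryonic day 15.5 (E15.5) and at E13.5, a gap of 2 days. Of the 4 samples and 8 arrays of the series, 2 samples with 2 arrays each entered this comparison, chosen by their labelled stage. Both groups were wild type, male and of the mouse line that the labels name MCH, and no agent or allele distinguished them. The E14.5 sample, of the same sex, genotype and line, served to ask which changes went on between E14.5 and E15.5. The series text calls the arrays of a stage biological duplicates. Per the labels, dissected gonads were stored frozen in a preservative, and labelled cRNA was made from 0.20 µg of total RNA by linear amplification, and the labels do not say how many embryos gave a sample. Each array reports the brightness of one dye over oligonucleotide probes, and levels below are log2 signals with the 75th percentile of the array set to 0.

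As background, the fetal testis at these stages consists of cords of Sertoli cells that enclose germ cells, with peritubular, Leydig, endothelial and blood cells between the cords. Sertoli cells direct the male fate and hold retinoic acid away from germ cells, which leave the mitotic cycle, shut off genes of pluripotency and begin to establish DNA methylation and piRNA-based silencing of transposons. Leydig cells outside the cords make androgens and Insl3, while collagen, elastin and other matrix proteins accumulate around cords and vessels.

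The 2 stages did not share a slide, a scan session or a version of the scanner software. The E12.5 and E13.5 samples were each spread over slides 1 and 2, with array 1 on the former and array 2 on the latter, whereas E14.5 and E15.5 were together on slide 3. For E15.5 against E13.5, slide and stage therefore cannot be told apart, and only E15.5 against E14.5 lies within a single slide. On the 4 arrays compared, 60.3% to 67.4% of probes were well above background, the lowest share being that of E15.5 array 2. Duplicates correlated across genes at r of 0.981 for E13.5 and 0.989 for E15.5, and arrays of the different stages at 0.924 to 0.942 (genes are not independent replicates). Of the germ cell markers Ddx4 and Dazl, the Sertoli markers Sox9, Amh and Dhh, and the Leydig markers Cyp17a1, Hsd3b1 and Insl3, all were well above background on every array compared. Xist was above background on 0 arrays, and of the Y-linked genes Ddx3y, Eif2s3y, Kdm5d and Uty 0 were called by limma (1 higher and 1 lower at an unadjusted p under 0.05).

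Between E13.5 and E15.5, 14 of 22 tested genes of pluripotency and primordial germ cells fell, as did 3 embryonic globins and 5 of 11 nephric duct genes. In the other direction 7 of 9 neutrophil granule genes, 15 of 34 matrix genes and 5 of 13 male germ cell genes rose. Counts of the pluripotency, neutrophil, matrix and male germ cell lists were lower when some single arrays were left out, as given with each list. The 3 globin falls were called whichever array was left out. By limma with Benjamini-Hochberg adjustment, 5396 of 21986 genes (24.5%) were called at an adjusted p under 0.05, of which 2987 (13.6%) were higher and 2409 (11.0%) lower at E15.5. Past a 2-fold change there were 2354 higher and 1640 lower genes, and past a 4-fold change 936 and 369. Of the genes called higher, 586 were not well above background on either E13.5 array, and 272 of those called lower on neither E15.5 array. Such genes passed the filter only through other stages. For 70.1% of genes both E15.5 arrays lay on the same side of both E13.5 arrays, above for 35.9% and below for 34.2%. Dropping E13.5 array 1 left 2563 called genes, dropping E13.5 array 2 left 2128, dropping E15.5 array 1 left 2597 and dropping E15.5 array 2 left 1378. With a normexp background correction in which extreme local backgrounds were replaced, 38.4% of the called genes were higher, and with plain normexp 21.6% of 116, against 55.4% here. Values after ± are limma's standard errors for 2 arrays per stage. The p-values reflect the spread between duplicates, pooled over all 4 stages, and nothing beyond it. For E12.5 and E13.5 that spread includes the difference between slides 1 and 2. Differences between duplicates recurred between stages, which the p-values do not allow for. Their r across genes was 0.646 for E12.5 and E13.5 and -0.589 for E14.5 and E15.5. Some list members named below lie outside the naming rule and were chosen after their values were seen, as defining genes or as further called members.

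**Figure D1:**
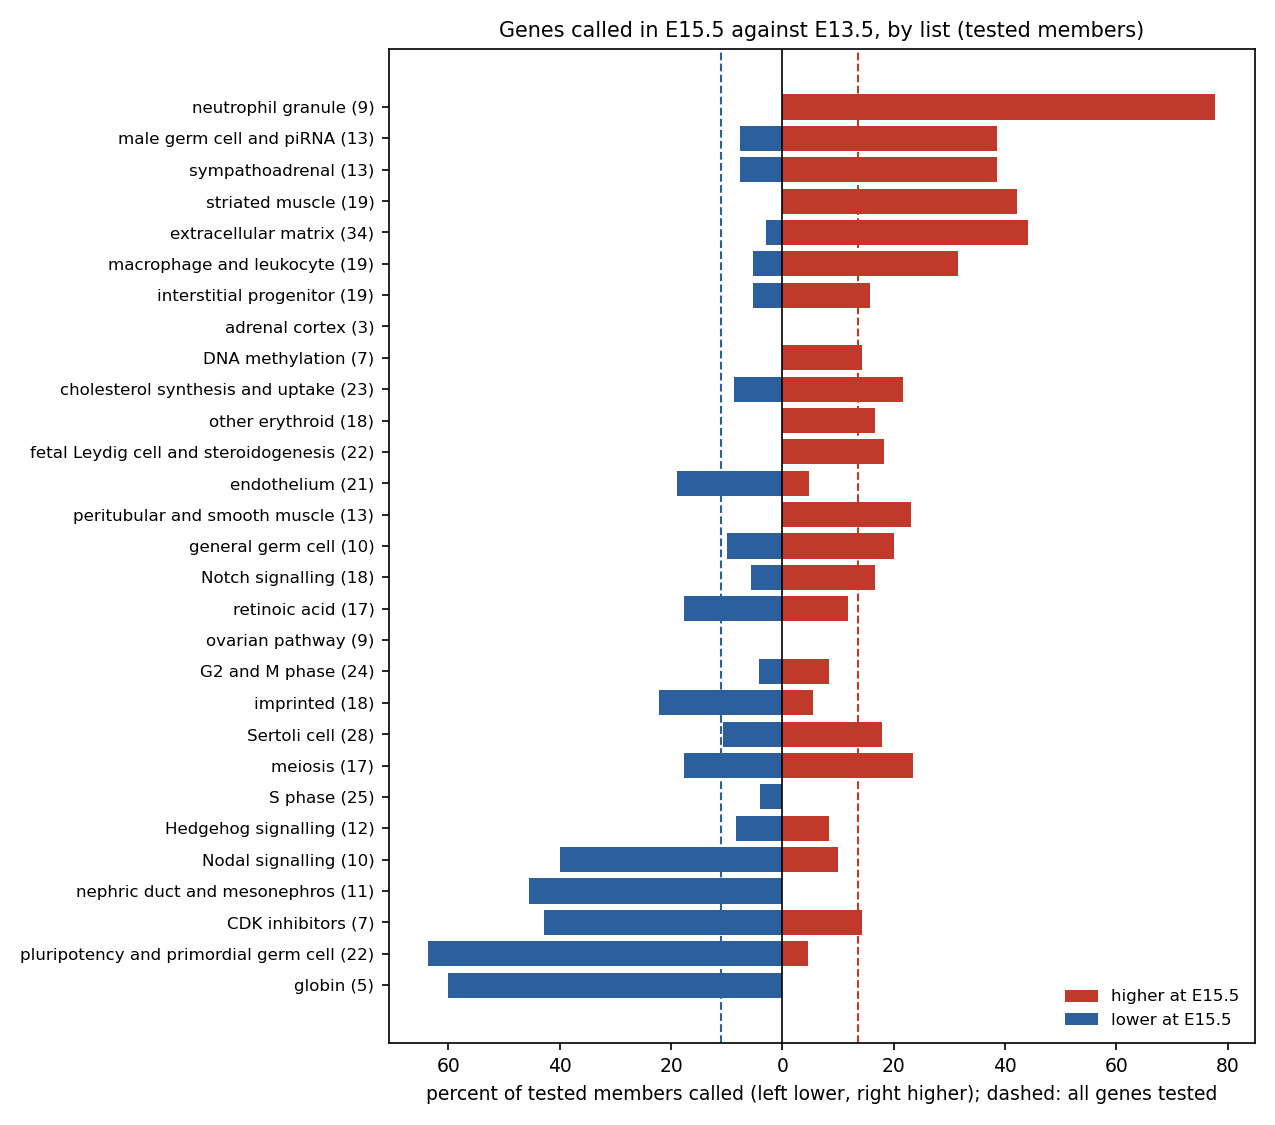
For 29 gene lists, the bars give the percentage of tested members called in E15.5 against E13.5, lower to the left in blue and higher to the right in red, with the number of tested members in brackets. The dashed lines mark the shares over all genes tested, 11.0% lower and 13.6% higher, and the neutrophil granule list (77.8% higher) and the pluripotency list (63.6% lower) reach farthest beyond them.

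Genes of pluripotency and of primordial germ cells were mostly lower at E15.5. Of 24 genes listed 22 were tested, and 14 of them fell (63.6%, against 11.0% of all genes tested), 1 rose and 7 were not called. The median difference of the list was log2 -1.55, against 0.01 over all genes. Dppa3, which protects maternal DNA methylation marks and is a classic marker of primordial germ cells, was at 5.79 and 5.75 on the E13.5 arrays, at 4.23 and 4.02 at E14.5, and at 1.18 and 0.62 at E15.5. The stages did not overlap, and each later stage lay lower. This was a fall of log2 4.87 ± 0.23 in all (limma adjusted p = 0.000381), of which log2 -3.23 lay between E14.5 and E15.5 on slide 3.

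Sox2, a transcription factor of pluripotent cells, was at -0.23 and -0.11 at E13.5 and at -5.37 and -4.77 at E15.5, where 1 of the 2 arrays was well above background. It changed by log2 -4.89 ± 0.31 (limma adjusted p = 0.000629). Pou5f1, the pluripotency factor also called Oct4, went from 2.95 and 3.08 to 1.61 and 1.17, a change of log2 -1.62 ± 0.26 (limma adjusted p = 0.00821), so its fall was the smaller one on the log2 scale. The RNA-binding protein gene Nanos3, which primordial germ cells need to survive, was at 0.27 and 0.64 at E13.5 and at -3.38 and -3.80 at E15.5. Dppa5a, an RNA-binding protein gene of pluripotent cells, changed by log2 -4.35 ± 0.23 and Tcl1, a coactivator of the kinase Akt, by log2 -3.20 ± 0.27. Smaller falls were measured for Utf1 (log2 -2.09), Dppa2 (-1.67), Zfp42 (-1.48), Esrrb (-1.38), Lin28a (-1.34), Lin28b (-0.94) and Prdm1 (-0.87).

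Ifitm3 changed by log2 -4.36, but its E13.5 arrays were at 3.73 on slide 1 and at 6.75 on slide 2, and its standard error was 1.24 (limma adjusted p = 0.0464). The call was lost without E13.5 array 2, either E15.5 array or either E14.5 array, with a limma adjusted p of up to 0.175. Klf2 and Sall4 showed a like split between slides 1 and 2 (6.65 and 9.35 for Klf2, -1.10 and 3.01 for Sall4) and were not called. Dppa4 (log2 -0.19 ± 0.28), Alpl (-0.17), Fut4 (-0.17) and Tfap2c (-0.22) were not called either. Kit, the receptor of stem cell factor, was the list's only called member that rose, from -0.75 and -1.05 to 0.58 and 0.75 (log2 1.56 ± 0.23, limma adjusted p = 0.00616). Kit is also made outside germ cells, and in bulk tissue fewer cells of a type and less RNA per cell cannot be told apart. Without E13.5 array 2 the list had 8 members lower and without E15.5 array 2 it had 7, and in the second case Kit and Pou5f1 were no longer called.

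**Figure D2:**
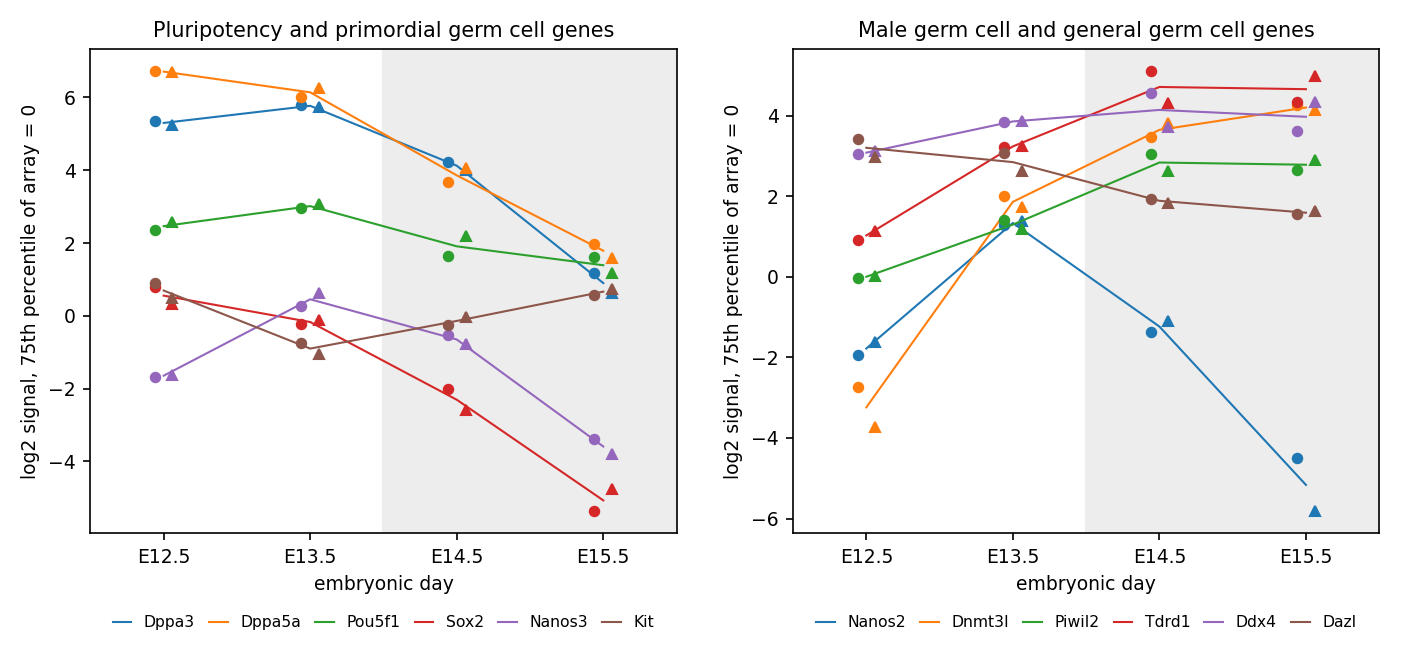
Log2 signal of 12 germ cell genes on all 8 arrays by stage, with circles for array 1, triangles for array 2 and lines through the stage means; the shaded stages share slide 3. Dppa3, Dppa5a, Sox2, Nanos3 and Nanos2 are lower at E15.5 than at E14.5 and E13.5, whereas Dnmt3l, Piwil2 and Tdrd1 are higher at E14.5 and E15.5 than at E13.5.

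In the male germ cell list, Dnmt3l and 4 genes of piRNA biogenesis rose, Nanos2 fell and the majority of members were not called. Of 13 tested genes 5 rose (38.5%, against 13.6% of all genes), 1 fell and 7 were not called, with a median of log2 0.98. Nanos2, an RNA-binding protein that promotes the male germ cell fate, was at 1.28 and 1.39 at E13.5, at -1.37 and -1.10 at E14.5 and at -4.51 and -5.82 at E15.5. It was the largest fall in the germ cell lists, log2 -6.50 ± 0.41 (limma adjusted p = 0.000624), and at E15.5 1 of the 2 arrays was well above background. Dnmt3l, the cofactor of de novo DNA methylation in male germ cells, rose from 2.0 and 1.72 to 4.26 and 4.14 (log2 2.34 ± 0.34, limma adjusted p = 0.00604). Its enzymes were not called: Dnmt3a was at 2.65 and 2.45 at E13.5 and at 2.47 and 1.94 at E15.5 (log2 -0.34 ± 0.31), and Dnmt3b changed by log2 0.05 ± 0.24. Dnmt3l was the single member of 7 tested in the DNA methylation list to be called (14.3% higher, near the 13.6% of all genes).

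Piwil2, the Piwi protein that binds piRNAs in fetal germ cells, rose from 1.40 and 1.19 to 2.66 and 2.90, and its E14.5 arrays, at 3.05 and 2.62, overlapped those of E15.5. The rise was log2 1.48 ± 0.22 (limma adjusted p = 0.00613), and the difference from E14.5 was log2 -0.06. Fkbp6, a cochaperone of piRNA loading (log2 1.79 ± 0.43), Tdrd1, a tudor protein of the germ cell granules where piRNAs are processed (1.42 ± 0.33), and Henmt1, the piRNA methyltransferase (1.37 ± 0.35), also rose. The other probes of Fkbp6 and Tdrd1 gave log2 0.95 and 0.75. Tdrd7 (0.98 ± 0.32), Mael (0.72 ± 0.21) and Asz1 (-0.27 ± 0.22) were not called. Dropping E13.5 array 1 left 3 members higher, dropping E13.5 array 2 left 2, and dropping E15.5 array 2 left 1, Dnmt3l. Fkbp6 and Tdrd1 were not called without either E13.5 array or E15.5 array 2, and neither was Piwil2 in the latter case (limma adjusted p = 0.0544).

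Markers that germ cells carry in both sexes were mostly not called, as was the case over all genes tested. Ddx4, the germ cell RNA helicase, was at 3.84 and 3.87 at E13.5 and at 3.61 and 4.33 at E15.5, so the stages overlapped (log2 0.11 ± 0.34, not called, and -0.01 under median scaling). Dazl, an RNA-binding protein of germ cells, went from 3.07 and 2.62 to 1.56 and 1.62 (log2 -1.25 ± 0.24, limma adjusted p = 0.0135), and its other probe gave log2 -2.78. Dazl was not called without E13.5 array 1, E15.5 array 1 or E15.5 array 2. Hormad1 and Mageb4 rose by log2 0.71 and 0.92 and lost that call without any 1 of the 4 arrays. Of 10 tested genes of the general germ cell list 2 rose (20%, against 13.6% of all genes), 1 fell (10%, near 11.0%) and 7 were not called.

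Of 17 tested genes of meiosis 4 rose (23.5%, against 13.6% of all genes), 3 fell (17.6%, against 11.0%) and 10 were not called. Dmc1, the recombinase of meiotic strand exchange, was at -4.37 and -4.99 at E13.5 and at -2.38 and -2.29 at E15.5, a rise of log2 2.35 ± 0.24 (limma adjusted p = 0.00188). Spo11, which makes the meiotic DNA breaks, rose by log2 1.56 ± 0.19, with 0.87 at its other probe. Its call was lost under quantile scaling (0.74) and under normexp with extreme backgrounds replaced (0.48), and plain normexp gave -0.34. Tex15 and Tex12 rose by 1.31 ± 0.24 and 0.97 ± 0.17. Sohlh2, a transcription factor of early germ cell differentiation, fell from -0.25 and 0.00 to -2.64 and -2.74 (log2 -2.56 ± 0.18, limma adjusted p = 0.000755), and nearly all of that difference lay before E14.5. Sycp1 and Sycp3, components of the synaptonemal complex, fell by 1.71 ± 0.22 and 1.35 ± 0.30 on the log2 scale. Stra8, the gene through which retinoic acid starts meiosis, was at 1.64 and 1.71 at E13.5 and at 0.78 and 1.17 at E15.5 and was not called (log2 -0.70 ± 0.42), its E14.5 arrays lying apart at 1.40 and 0.03. Without E13.5 array 2, E15.5 array 1 or E15.5 array 2 the list had 2 members higher. Sycp3 was not called without any 1 of the 4 arrays, and Tex12 and Tex15 kept their calls only without E13.5 array 1.

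Nodal signalling is active in fetal male germ cells through the coreceptor Tdgf1 and is damped by the Lefty proteins. Its list had 4 of 10 tested genes lower (40%, against 11.0% of all genes) and 1 higher (10%, against 13.6%). The median was log2 -0.92. Lefty1, a Nodal inhibitor and target, fell from -0.08 and -0.36 to -4.24 and -2.72, overlapping its E14.5 arrays at -3.95 and -4.97 (log2 -3.26 ± 0.55, limma adjusted p = 0.00977). Foxh1, a transcription factor that carries the Nodal signal, changed by log2 -1.45 ± 0.23, and the receptor gene Acvr2b by -2.07 ± 0.60. Smad2, a signal transducer, rose by 0.76 ± 0.21. Tdgf1 itself was at -3.32 and -5.38 and then at -5.26 and -6.06 and was not called. Without E15.5 array 2 the list had 2 members lower and Foxh1 was not called (limma adjusted p = 0.0628), and Acvr2b and Smad2 were not called without any 1 of the 4 arrays.

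Of the retinoic acid list of 17 tested genes, 2 rose (11.8%, near the 13.6% of all genes) and 3 fell (17.6%, against 11.0%). Cyp26b1, the enzyme by which Sertoli cells break down retinoic acid, fell from 4.08 and 4.17 to 2.74 and 2.53 (log2 -1.49 ± 0.17, limma adjusted p = 0.00288). The binding protein gene Crabp2 changed by log2 -1.2 ± 0.18 and the receptor gene Rxrb by -1.34 ± 0.29, while Rbp4, the retinol carrier, and Aldh1a3, a retinoic acid synthase, rose by 1.23 ± 0.24 and 1.25 ± 0.32. The synthase Aldh1a2 was at 3.17 and 3.48 and then at 2.88 and 3.36, so the stages overlapped. Without E15.5 array 2 the list had 0 members higher and 1 lower, which was Cyp26b1, and without either E13.5 array it had 0 higher and 2 lower.

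Among 28 tested Sertoli cell genes 5 rose (17.9%, near the 13.6% of all genes), 3 fell (10.7%, near 11.0%) and 20 were not called. Hsd17b1, a steroid dehydrogenase, rose most, from -0.49 and -0.74 at E13.5 through 1.2 and 1.25 at E14.5 to 1.98 and 2.09 (log2 2.66 ± 0.18, limma adjusted p = 0.000713). Hsd17b3, which fetal Sertoli cells use to convert androstenedione to testosterone, rose by 0.78 ± 0.17. Sox8, a relative of Sox9, rose by 1.42 ± 0.25 (0.55 by its other probe), Inhba, the activin A subunit, by 1.02 ± 0.18 and Mro by 0.75 ± 0.21. Beside Cyp26b1, the tight junction gene Cldn11 (log2 -1.67 ± 0.26) and the growth factor gene Fgf9 (-1.08 ± 0.18) fell.

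The defining Sertoli genes were not called. Sox9, the transcription factor of Sertoli fate, was at 2.34 and 1.13 at E13.5 and at 2.07 and 2.63 at E15.5, and its 3 probes gave log2 0.61, 0.47 and -0.36. Amh, which makes the female ducts regress, was at 1.22 and 0.99 and then at 0.59 and 0.85 (log2 -0.39 ± 0.19, not called). Dhh, the hedgehog ligand of Sertoli cells, was at 5.0 and 5.32 and then at 4.68 and 5.29 (log2 -0.18 ± 0.35, not called, and 0.06 under quantile scaling). Nr5a1, a nuclear receptor of gonadal somatic cells, gave log2 -0.58 ± 0.49. Higher members of the list numbered 3 without E13.5 array 1 and 1 without any of the other 3 arrays, that 1 being Hsd17b1. Sox8 and Inhba were not called without E13.5 array 2 or either E15.5 array, Hsd17b3 not without any 1 of the 4 arrays, Fgf9 not without E13.5 array 1 or E15.5 array 2, and Cldn11 not without E15.5 array 2.

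**Figure D3:**
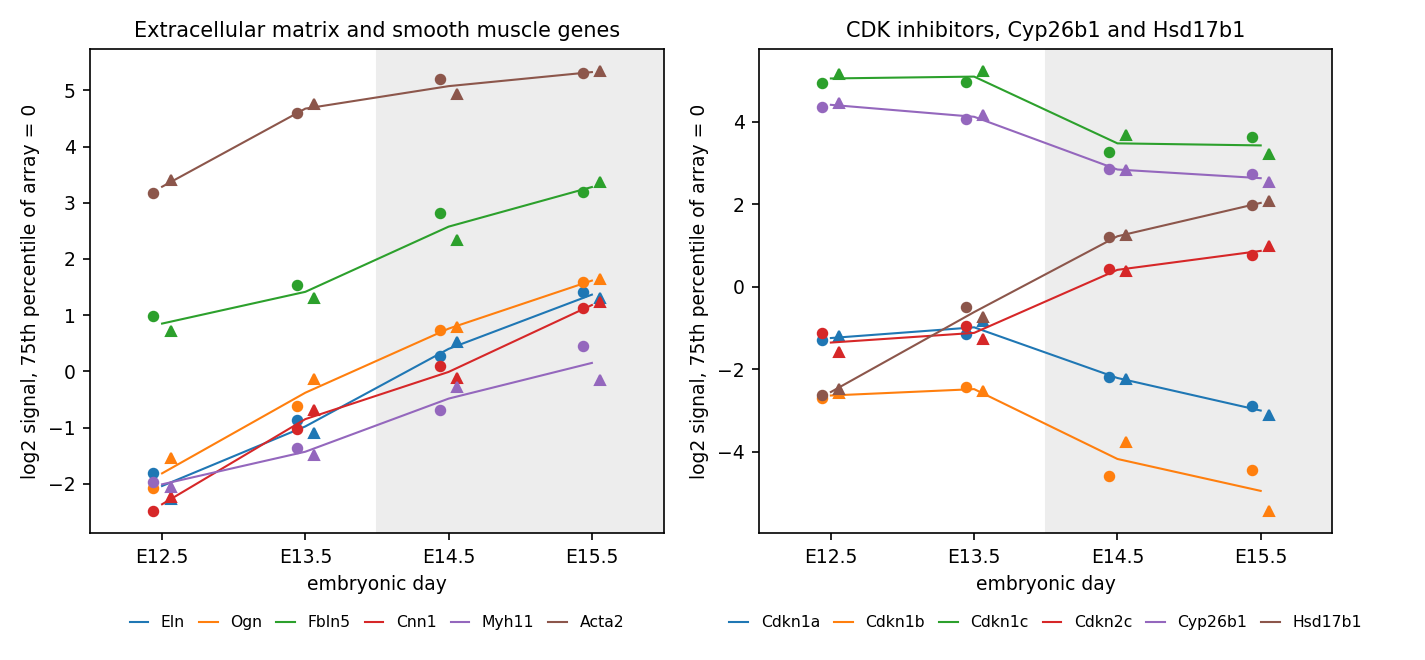
Log2 signal of 12 somatic and cell cycle genes on all 8 arrays by stage, with circles for array 1, triangles for array 2 and lines through the stage means; the shaded stages share slide 3. Eln, Ogn, Fbln5, Cnn1 and Hsd17b1 lie higher at E15.5 than at E14.5 and E13.5, and Cdkn1a and Cyp26b1 lie lower.

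Leydig cell genes were mostly not called. Of 22 tested 4 rose (18.2%, near the 13.6% of all genes) and 18 were not called, with a median of log2 0.21. Lhcgr, the receptor of luteinising hormone, was at -4.83 and -4.27 at E13.5 and at -2.93 and -2.30 at E15.5 (log2 1.93 ± 0.45, limma adjusted p = 0.0247). The betaine methyltransferase gene Bhmt (2.29 ± 0.47), the steroid dehydrogenase gene Hsd3b6 (1.49 ± 0.24) and the matrix protein gene Thbs2 (1.33 ± 0.26) also rose.

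Cyp17a1, Cyp11a1 and Hsd3b1, enzymes of androgen synthesis, were not called. Cyp17a1 was at 4.16 and 4.44 at E13.5 and at 4.88 and 4.69 at E15.5 (log2 0.48 ± 0.26), Cyp11a1 at 3.54 and 3.97 and then at 4.59 and 4.31 (0.70 ± 0.25). Star, which brings cholesterol into mitochondria, gave 0.72 ± 0.22, and 1.70 by its other probe. Insl3, the hormone for descent of the testis, was at 5.29 and 5.73 and then at 5.84 and 5.39 (0.11 ± 0.30, and -0.02 under median scaling). Higher Leydig members numbered 2 when E13.5 array 1 was dropped, 1 for E13.5 array 2 or E15.5 array 1, and 0 for E15.5 array 2. Of 3 tested adrenal cortex genes 0 were called by limma (1 higher at an unadjusted p under 0.05), 2 more (Cyp21a1 and Cyp11b2) were not well above background on either E15.5 array, and the list's summed signal was 2.47 and 2.54 times the 75th percentile at E13.5 and 3.51 and 3.24 times at E15.5.

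Genes of cholesterol synthesis and uptake had 5 of 23 members higher (21.7%, against 13.6% of all genes) and 2 lower (8.7%, near 11.0%). Cyp51, the lanosterol demethylase, went from 0.29 and 0.16 to 1.5 and 1.53 (log2 1.30 ± 0.23, limma adjusted p = 0.0110), and Dhcr7, the enzyme of the final step to cholesterol, from 3.67 and 4.19 to 4.72 and 5.26. Insig1 (1.33 ± 0.38), Hmgcs1 (0.84 ± 0.24) and Pmvk (0.75 ± 0.21) also rose. Other probes gave log2 1.45 and 0.47 for Cyp51, 1.09 for Dhcr7, 0.6 for Insig1 and 1.96 for Hmgcs1. The called falls of Stard4 and Hsd17b7 rested on the chosen probe, since their other probes gave log2 0.72 and 0.55 for Stard4 and 0.53 for Hsd17b7. Higher members of this list numbered 1 without E13.5 array 1 or under median scaling, and 0 without any of the other 3 arrays.

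Of 19 tested genes of interstitial progenitors 3 rose (15.8%, near the 13.6% of all genes) and 1 fell (5.26%, against 11.0%), with a median of 0.42. Pdgfra, a receptor of platelet-derived growth factor, rose from 2.33 and 2.07 to 3.16 and 3.47 (log2 1.12 ± 0.20, limma adjusted p = 0.0110) and Lhx2 by 0.96 ± 0.22. The other probe of Pdgfra gave log2 0.57. Maf, called lower at log2 -0.87, was at 1.42 by its other probe. Tcf21, a transcription factor of interstitial cells, was at 3.81 and 3.82 and then at 4.32 and 4.18 (0.44 ± 0.17, not called). Higher interstitial members numbered 3 when E15.5 array 1 was dropped, 1 for either E13.5 array and 0 for E15.5 array 2. In the Hedgehog list of 12 tested genes, the receptor and target Ptch1 changed by log2 -1.64 ± 0.41 and the coreceptor Gas1 by 0.72 ± 0.20, and neither call held without any 1 of the 4 arrays. The Hedgehog target Gli1 was at -1.97 and -1.87 and then at -1.86 and -2.78 (log2 -0.40 ± 0.49, 0.06 without E15.5 array 2).

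In the Notch list of 18 tested genes 3 rose (16.7%, near the 13.6% of all genes) and 1 fell (5.56%, against 11.0%). The ligand gene Dll3 changed by log2 -1.29 ± 0.17 (limma adjusted p = 0.00456), from -0.67 and -0.81 to -2.11 and -1.96. Rbpj, the DNA-binding partner of Notch, rose by 1.03 ± 0.24, Nrarp by 0.79 ± 0.16 and Hey2 by 0.77 ± 0.21, and those 3 rises were not called without any single 1 of the 4 arrays or under median scaling.

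Genes of the extracellular matrix were often higher at E15.5. Of 34 tested 15 rose (44.1%, against 13.6% of all genes), 1 fell and 18 were not called, with a median of log2 0.56. Eln, the elastin gene, was at -0.87 and -1.09 at E13.5, at 0.28 and 0.52 at E14.5 and at 1.42 and 1.31 at E15.5. Its stages did not overlap, and it rose by log2 2.34 ± 0.23 (limma adjusted p = 0.00161), of which 0.97 lay within slide 3. Of other genes of elastic fibres, Fbln5 rose from 1.53 and 1.30 to 3.19 and 3.37 (1.86 ± 0.24) and Fbn1, fibrillin 1, by 1.60 ± 0.25. Fbn2, fibrillin 2, was at 0.41 and 0.68 and then at -0.29 and -1.35 (log2 -1.36 ± 0.59) and Mfap5 gave 0.54 ± 0.26, and neither was called.

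The small proteoglycan gene Ogn rose by log2 2.0 ± 0.25, and the laminin gene Lama2, whose chain lines muscle and vessel cells, by 1.61 ± 0.29 (2.29 by its other probe). Among fibrillar collagens Col1a1 went from 4.96 and 5.15 to 6.30 and 6.48 (1.33 ± 0.22), Col3a1 rose by 0.95 ± 0.17 and Col5a1 by 0.82 ± 0.18, while Col1a2 gave -0.43 ± 0.23 and was not called. Basement membrane genes split: Lamb1 (1.17 ± 0.19) and Nid1 (1.11 ± 0.26) rose, and Col4a1 (0.25 ± 0.23), Lamc1 (0.18 ± 0.17) and Nid2 (-0.04 ± 0.23) were not called. Fbln2 changed by log2 -1.27 ± 0.36 and lost that call without any 1 of the 4 arrays. For 13 of the 15 that rose, both E15.5 arrays also lay above both E14.5 arrays, as they did for 60.8% of all genes called higher. Higher members of the matrix list numbered 8 when E13.5 array 1 was dropped, 6 for E13.5 array 2, 7 for E15.5 array 1 and 4 for E15.5 array 2, and Lama2 was not called without E13.5 array 2 or E15.5 array 1.

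In the list of peritubular and smooth muscle genes 3 of 13 rose (23.1%, against 13.6% of all genes). The other 10 were not called, and the median was log2 0.09. Cnn1, calponin of contractile smooth muscle, was at -1.02 and -0.68 at E13.5, at 0.10 and -0.12 at E14.5 and at 1.13 and 1.23 at E15.5. It rose by log2 2.03 ± 0.21 (limma adjusted p = 0.00188). Smooth muscle myosin Myh11 went from -1.37 and -1.49 to 0.46 and -0.16 (1.58 ± 0.26), and Lmod1, an actin nucleator of smooth muscle, rose by 1.45 ± 0.21. Myh11 was not called without E13.5 array 2 (limma adjusted p = 0.0526) and Lmod1 not without E15.5 array 2 (limma adjusted p = 0.0540). Acta2, the smooth muscle actin, was at 4.59 and 4.76 and then at 5.31 and 5.34, which missed the threshold (0.65 ± 0.19, limma adjusted p = 0.0523), and its other probes gave 1.04 and 1.0. Tagln gave log2 -0.50 ± 1.01, its E13.5 arrays lying at 3.66 on slide 1 and 5.55 on slide 2.

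Of the striated muscle genes 8 of 19 tested rose (42.1%, against 13.6% of all genes), with a median of log2 0.73. Tnnc2, fast skeletal troponin C, was at -2.68 and -3.12 at E13.5, at 1.36 and 0.59 at E14.5 and at 1.79 and 2.39 at E15.5 (log2 4.99 ± 0.34, limma adjusted p = 0.000715). Myh8, perinatal myosin, rose by 1.62 ± 0.20, nearly all of it within slide 3. The defining muscle genes were not called: Acta1 was at -0.89 and -2.19 and then at -0.80 and -0.97, Myog at -2.97 and -2.72 and then at -2.36 and -2.03, and Myod1 at -4.91 and -6.21 and then at -4.97 and -4.78. The summed signal of the list was 9.39 and 8.46 times the 75th percentile at E13.5 and 19.7 and 21.1 times at E15.5, and its part in the rise of matrix and smooth muscle genes was not tested. Leaving out E13.5 array 1, E13.5 array 2, E15.5 array 1 or E15.5 array 2 gave 5, 4, 4 and 3 striated muscle members higher.

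Endothelial genes had 1 of 21 members higher (4.76%, against 13.6% of all genes) and 4 lower (19%, against 11.0%). Kdr, the main receptor of vascular endothelial growth factor, went from 1.21 and 1.10 to -0.42 and -0.67 (log2 -1.70 ± 0.19, limma adjusted p = 0.00260). Vwf, the clotting factor carrier of mature endothelium, rose from -0.34 and -0.29 to 1.61 and 1.10 (1.67 ± 0.31), a call lost without either E13.5 array or E15.5 array 1. Cldn5, Tie1 and Plvap changed by log2 -0.90, -0.83 and -0.66, and each lost its call without any 1 of the 4 arrays. The general markers Pecam1 (0.34 ± 0.34) and Cdh5 (0.43 ± 0.21) were not called.

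Embryonic globins fell, and adult globins were not called. Red blood cells of the yolk sac carry embryonic globins, and those of the fetal liver, which replace them, carry adult ones. Hbb-y, an embryonic beta globin, was at 5.67 and 5.24 at E13.5, at 3.37 and 3.95 at E14.5 and at 0.57 and -0.47 at E15.5. It changed by log2 -5.40 ± 0.38 (limma adjusted p = 0.000778). Hbb-bh1, the other embryonic beta globin, went from 2.09 and 1.73 to -3.09 and -3.60 (log2 -5.25 ± 0.27), and the embryonic alpha globin Hba-x from 2.12 and 2.16 to -2.01 and -2.40 (log2 -4.34 ± 0.24). In all 3 genes every later stage lay below the one before, and all were also called within slide 3, with log2 -3.61, -3.00 and -2.55.

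Of the adult genes, Hba-a1 was at 7.14 and 8.09 at E13.5 and at 7.51 and 7.64 at E15.5, so its stages overlapped (log2 -0.04 ± 0.44), and Hbb-bt was at 7.31 and 7.60 and then at 7.97 and 8.25 (0.66 ± 0.21, not called). Globin genes are near copies of each other, and cross-hybridisation of probes was not tested. Of 18 other red cell genes 3 rose (16.7%, against 13.6% of all genes), among them Hemgn and Tal1 by log2 1.36 and 1.18. The heme enzyme gene Alas2 (0.56 ± 0.22) and the anion exchanger gene Slc4a1 (0.24 ± 0.21) were not called. Without E13.5 array 2, E15.5 array 1 or E15.5 array 2 the red cell list had 1 member higher, and the 3 falls of embryonic globins were called whichever array was left out.

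The promoters of an embryonic and an adult gene at each globin locus are printed because the embryonic members fell and the adult ones were not called. Sequences are from RefSeq on GRCm38.p6, 250 bases before to 50 after the start, and 4 of the 5 tested globin genes had an entry. Capitals mark the letters CACCC, read by Krüppel-like factors, the letters CCAAT, and the letters GATAA, a core read by GATA factors. Each was searched on both strands and chosen after the values were seen. Hba-x lies at chr11:32276350-32276649 and Hba-a1 at chr11:32283422-32283721, both on the plus strand, and Hbb-y at chr7:103853158-103853457 and Hbb-bt at chr7:103813874-103814173, both on the minus strand.
Hba-x: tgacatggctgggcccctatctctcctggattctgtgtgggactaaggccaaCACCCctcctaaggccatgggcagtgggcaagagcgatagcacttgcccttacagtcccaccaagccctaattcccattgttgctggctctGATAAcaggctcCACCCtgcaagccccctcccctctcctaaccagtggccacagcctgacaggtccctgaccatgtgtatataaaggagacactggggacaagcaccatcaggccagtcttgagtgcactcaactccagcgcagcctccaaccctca
Hba-a1: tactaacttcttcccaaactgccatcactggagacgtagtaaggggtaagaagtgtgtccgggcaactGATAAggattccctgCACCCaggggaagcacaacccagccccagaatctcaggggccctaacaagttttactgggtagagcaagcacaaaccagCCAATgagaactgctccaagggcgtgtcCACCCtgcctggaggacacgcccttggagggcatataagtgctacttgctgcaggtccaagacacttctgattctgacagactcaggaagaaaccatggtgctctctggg
Hbb-y: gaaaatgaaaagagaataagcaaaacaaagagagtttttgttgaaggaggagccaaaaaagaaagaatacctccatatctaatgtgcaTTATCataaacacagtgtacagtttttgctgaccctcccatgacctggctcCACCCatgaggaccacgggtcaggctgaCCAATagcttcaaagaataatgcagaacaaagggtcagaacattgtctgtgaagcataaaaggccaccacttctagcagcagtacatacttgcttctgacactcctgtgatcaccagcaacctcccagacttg
Hbb-bt: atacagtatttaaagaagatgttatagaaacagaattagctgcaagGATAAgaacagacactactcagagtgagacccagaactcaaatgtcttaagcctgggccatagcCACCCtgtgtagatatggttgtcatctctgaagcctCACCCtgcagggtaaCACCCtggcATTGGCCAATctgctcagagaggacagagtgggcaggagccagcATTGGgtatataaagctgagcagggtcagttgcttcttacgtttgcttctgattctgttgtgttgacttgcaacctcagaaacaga
CACCC was found in 4 of these 4 promoters and in 57.5% of all 32851 RefSeq promoters, GATAA in 4 and in 25.4%, and CCAAT in 3 and in 37.4%. Hba-x was the one without CCAAT in this window, whereas the embryonic Hbb-y had it, so its presence did not separate embryonic from adult genes in this set.

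**Figure D4:**
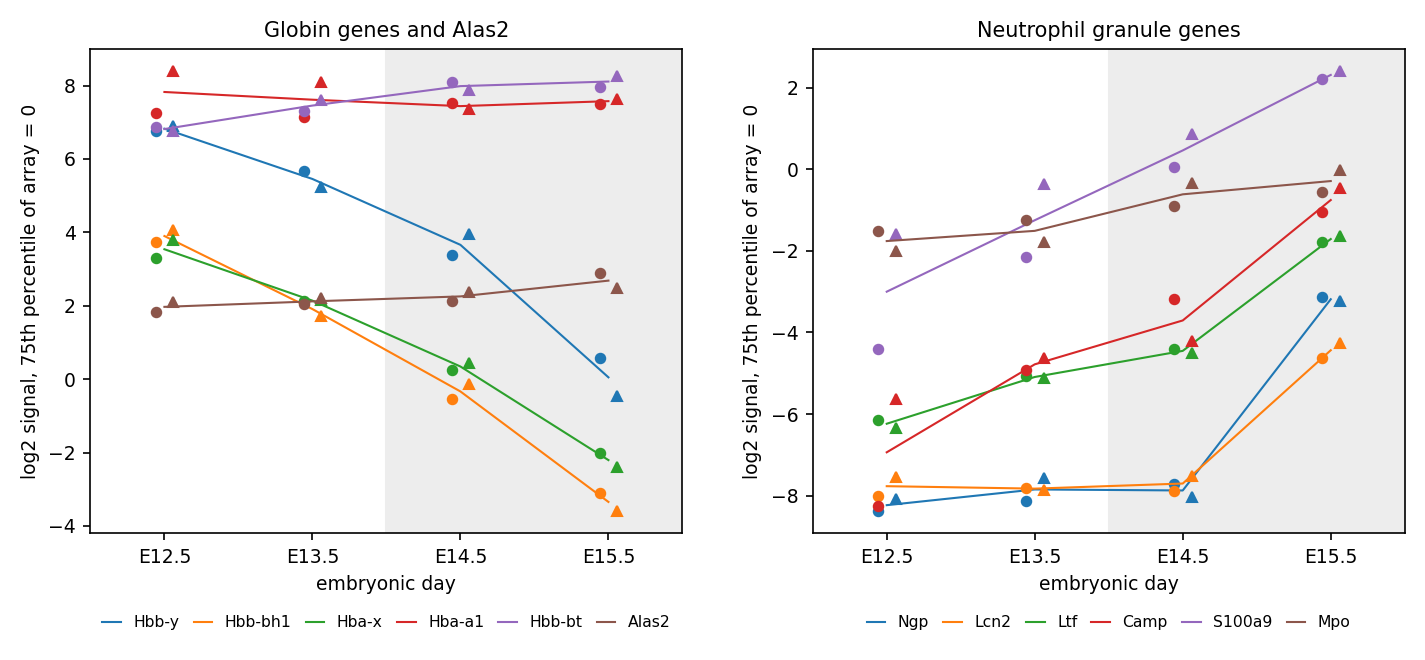
Log2 signal of globin genes with Alas2 (left) and of neutrophil granule genes (right) on all 8 arrays by stage, with circles for array 1, triangles for array 2 and lines through the stage means; the shaded stages share slide 3. Hbb-y, Hbb-bh1 and Hba-x are lower at each later stage while Hba-a1 and Hbb-bt lie between 6.77 and 8.39 throughout, and Ngp and Lcn2 are at -7.51 or lower until E14.5 and at -4.62 or higher at E15.5.

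Neutrophil granule genes had the highest median of the lists, log2 3.39, with 7 of 9 tested members higher (77.8%, against 13.6% of all genes). Of 14 members on the array, only those well above background on both arrays of a stage were tested. The count and median therefore leave out dim members. Ngp, neutrophilic granule protein, was at -8.13 and -7.56 at E13.5, at -7.70 and -8.04 at E14.5 and at -3.14 and -3.23 at E15.5. It was not well above background at E13.5, and the later stage was at least 6.60-fold brighter (limma adjusted p = 0.000413). Ngp entered the test only through its E15.5 arrays, so the filter favoured a rise, which the p-value does not allow for. Ltf, lactoferrin, went from -5.07 and -5.11 to -1.79 and -1.63 (log2 3.37 ± 0.18), and Lcn2, lipocalin 2, was at least 2.78-fold higher. Like Ngp, Lcn2 entered the test only through its E15.5 arrays. Ngp, Ltf and Lcn2 were also called within slide 3, where the filter likewise favoured a rise of Ngp and Lcn2.

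The antimicrobial peptide gene Camp rose by log2 4.02 ± 0.82, the calprotectin genes S100a8 and S100a9 by 3.47 ± 0.81 and 3.56 ± 0.96, and Mpo, myeloperoxidase, by 1.22 ± 0.34. At E13.5 S100a8 was at -5.41 on slide 1 and -3.94 on slide 2, and S100a9 at -2.14 and -0.36. Camp was at -8.25 and -5.62 on these slides at E12.5 and at -4.93 and -4.63 at E13.5. A protease of earlier granules, Prtn3, was at -3.79 and -4.40 and then at -4.42 and -4.61 and was not called. Of the other genes listed, Elane, Csf3r and Retnlg were well above background on 0 arrays of both stages. The summed signal of the list was 0.90 and 1.35 times the 75th percentile at E13.5, 2.0 and 3.13 times at E14.5 and 6.81 and 8.13 times at E15.5. Camp and S100a9 lost their calls without any 1 of the 4 arrays. The list had 4 members higher without E13.5 array 2 and 3 without any of the other 3 arrays.

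Macrophage and leukocyte genes had 6 of 19 members higher (31.6%, against 13.6% of all genes) and 1 lower (5.26%, against 11.0%). Their median was 0.46. Lyz1, a lysozyme, went from -2.14 and -1.96 to -0.58 and -0.26 (log2 1.64 ± 0.20, limma adjusted p = 0.00327), and Cd53, a leukocyte tetraspanin, rose by 1.73 ± 0.31. The fractalkine receptor gene Cx3cr1 changed by log2 -1.58 ± 0.30. Adgre1, the macrophage marker F4/80, was at -2.02 and -1.56 and then at -0.87 and -0.01 and was not called (1.35 ± 0.41). Summed signal was 8.80 and 11.1 times the 75th percentile at E13.5 and 12.5 and 15.8 times at E15.5. Cd53 was not called without E13.5 array 1 or either E15.5 array, and Cx3cr1 not without E13.5 array 2 or E15.5 array 2. The members higher numbered 1 without E13.5 array 1 or E15.5 array 2, 2 with E15.5 array 1 dropped and 3 with E13.5 array 2 dropped.

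Genes of the nephric duct and mesonephros, the tissue beside the gonad, had 5 of 11 tested members lower (45.5%, against 11.0% of all genes). Their median was log2 -1.03. Lhx1, a transcription factor of the duct, was at -1.17 and -0.95 at E13.5, at -4.35 and -4.44 at E14.5 and at -4.60 and -4.63 at E15.5 (log2 -3.56 ± 0.18, limma adjusted p = 0.000393). Cdh1, E-cadherin, went from 0.64 and 0.45 through -0.21 and -0.83 to -2.40 and -2.50 (log2 -2.99 ± 0.27) and was also called within slide 3, at log2 -1.93. Pax2 was at least 1.72-fold lower. Cdh1 is made by fetal germ cells as well as by duct epithelium. Gata3 (log2 -0.19 ± 0.33), Epcam (-0.35 ± 0.31) and Emx2 (0.03 ± 0.32) were not called. Summed signal of the list was 4.92 and 5.06 times the 75th percentile at E13.5 and 2.46 and 2.74 times at E15.5, and its part in the falls named elsewhere was not tested.

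Sympathoadrenal genes, of the nerve and medulla lineage, had 5 of 13 members higher (38.5%, against 13.6% of all genes) and 1 lower (7.69%, against 11.0%). Slc6a2, the noradrenaline transporter, was near background until E14.5 and at -4.52 and -3.72 at E15.5, at least 3.46-fold above E13.5 (limma adjusted p = 0.00301). It entered the test only through its E15.5 arrays. Snap25 was at least 4.17-fold higher, and Pnmt and Chga rose by log2 1.34 and 0.91. Th, which makes the precursor of catecholamines, went the other way, at least 3.86-fold lower. Their summed signal was 1.49 on both E13.5 arrays and 2.32 and 2.57 at E15.5, in units of the 75th percentile. Leaving out an array left 3 members higher for E13.5 array 1, 1 for E13.5 array 2, 2 for E15.5 array 1 and 1 for E15.5 array 2. Th lost its call without E15.5 array 2 (limma adjusted p = 0.0663). Genes of the ovarian pathway had 0 of 9 called by limma (1 lower at an unadjusted p under 0.05), and Foxl2, its defining factor, was at -3.86 and -5.0 and then at -6.00 and -6.24.

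Few proliferation genes were called, while 3 inhibitors of cyclin-dependent kinases (CDKs) fell. Of 25 tested S phase genes 1 fell (4%) and the others were not called, and of 24 G2 and M phase genes 2 rose (8.33%) and 1 fell (4.17%), shares below the 13.6% and 11.0% of all genes. Mcm10, a replication initiation factor, changed by log2 -1.14 ± 0.22, and the mitotic cyclin gene Ccnb2 by -0.84 ± 0.21, from 4.67 and 4.91 to 3.86 and 4.05. Kif23 was called higher (0.87 ± 0.25), as was Anln (1.16 ± 0.21), whose other probe gave -0.79. Cdk1 (0.19 ± 0.21), Pcna (-0.34 ± 0.17) and Top2a (-0.75 ± 0.39) were not called. Ccnb2 and Kif23 lost their calls without any 1 of the 4 arrays, and Mcm10 and Anln without E13.5 array 2 or either E15.5 array.

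Of 7 tested CDK inhibitors 3 fell (42.9%, against 11.0% of all genes) and 1 rose (14.3%, near 13.6%). Cdkn1b, which encodes p27, was at -2.43 and -2.54 at E13.5, at -4.60 and -3.76 at E14.5 and at -4.46 and -5.45 at E15.5 (log2 -2.47 ± 0.39, limma adjusted p = 0.00810). At E15.5, 1 of its 2 arrays was well above background. Cdkn1a, encoding p21, went from -1.14 and -0.83 to -2.89 and -3.12 (log2 -2.02 ± 0.19), and Cdkn1c, encoding p57, from 4.97 and 5.23 to 3.64 and 3.22 (log2 -1.67 ± 0.25). Cdkn2c, encoding p18, rose from -0.96 and -1.28 to 0.76 and 0.98 (log2 1.99 ± 0.23, limma adjusted p = 0.00295). For Cdkn1b, Cdkn1a and Cdkn2c the call held whichever array was left out, and Cdkn1c lost it without E15.5 array 2 (limma adjusted p = 0.0511). Among 18 tested imprinted genes 1 rose (5.56%, against 13.6% of all genes) and 4 fell (22.2%, against 11.0%). Igf2r rose by log2 1.02 ± 0.23. The falls were those of Cdkn1c, Ascl2 (log2 -1.72 ± 0.33), Nnat (-0.74 ± 0.18) and Peg10 (at least 1.53-fold lower). Without any 1 of the 4 arrays the imprinted list had 0 members higher and 2, 2, 1 and 0 lower, in the order E13.5 array 1, E13.5 array 2, E15.5 array 1 and E15.5 array 2.

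Promoter motifs were counted as a description. The letters TTTGAA, the cell cycle homology region, were in 14 of 20 promoters of G2 and M phase genes (70%) against 17.9% of all promoters, and CCAAT in 16 of them (80%) against 37.4%. TTTGGCGC, an E2F site, was in 5 of 25 promoters of S phase genes (20%) against 0.514%: those of Cdt1, Mcm3, Mcm5, Mcm6 and Pola1, none of which was called here. CAAGGTCA, a site of steroidogenic factor 1, was in 1 of 19 promoters of Leydig genes, that of Bhmt, against 1.56%, and the CArG box of serum response factor in 1 of 10 smooth muscle promoters, that of Cnn2, against 1.63%.

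Without regard to lists, the called genes with a symbol that fell most included several whose difference lay almost wholly between E13.5 and E14.5, across slides. Syt10, a synaptotagmin, was at 4.83 and 6.42 at E13.5, at -2.15 and -1.34 at E14.5 and at -1.83 and -2.55 at E15.5 (log2 -7.81 ± 0.80, limma adjusted p = 0.00194). Lalba, alpha-lactalbumin of milk, was at -1.15 and -1.28 and then not well above background, at least 20.9-fold lower. Prm1, a protamine of spermatids, changed by log2 -5.24 ± 0.59 at the chosen probe, whereas its other probes gave -0.33 and 2.74. Klrb1f, a natural killer cell receptor gene, was well above background at E13.5 alone, at -2.09 and -3.69, against -8.15 and -7.97 at E12.5.

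Tlx2, a homeobox gene, was at -0.20 on slide 1 and 5.18 on slide 2 at E13.5, and at 0.02 and 4.83 on the same slides at E12.5. Its change of log2 -6.98 ± 2.01 (limma adjusted p = 0.0481) was not called without E13.5 array 2, E15.5 array 1 or E15.5 array 2, or without either E14.5 array. Of the genes tested, 1785 differed over 2-fold between slides 1 and 2 in the mean of E12.5 and E13.5. Of these, 63 were called lower and 134 higher at E15.5, shares below the 11.0% and 13.6% of all genes tested. The others of the 12 called genes with a symbol that fell most were Nanos2, Hbb-y, Hbb-bh1, Sox2, Dppa3, Ifitm3 and Dppa5a. Of these others, Ifitm3 alone differed over 2-fold between slides 1 and 2.

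**Figure D5:**
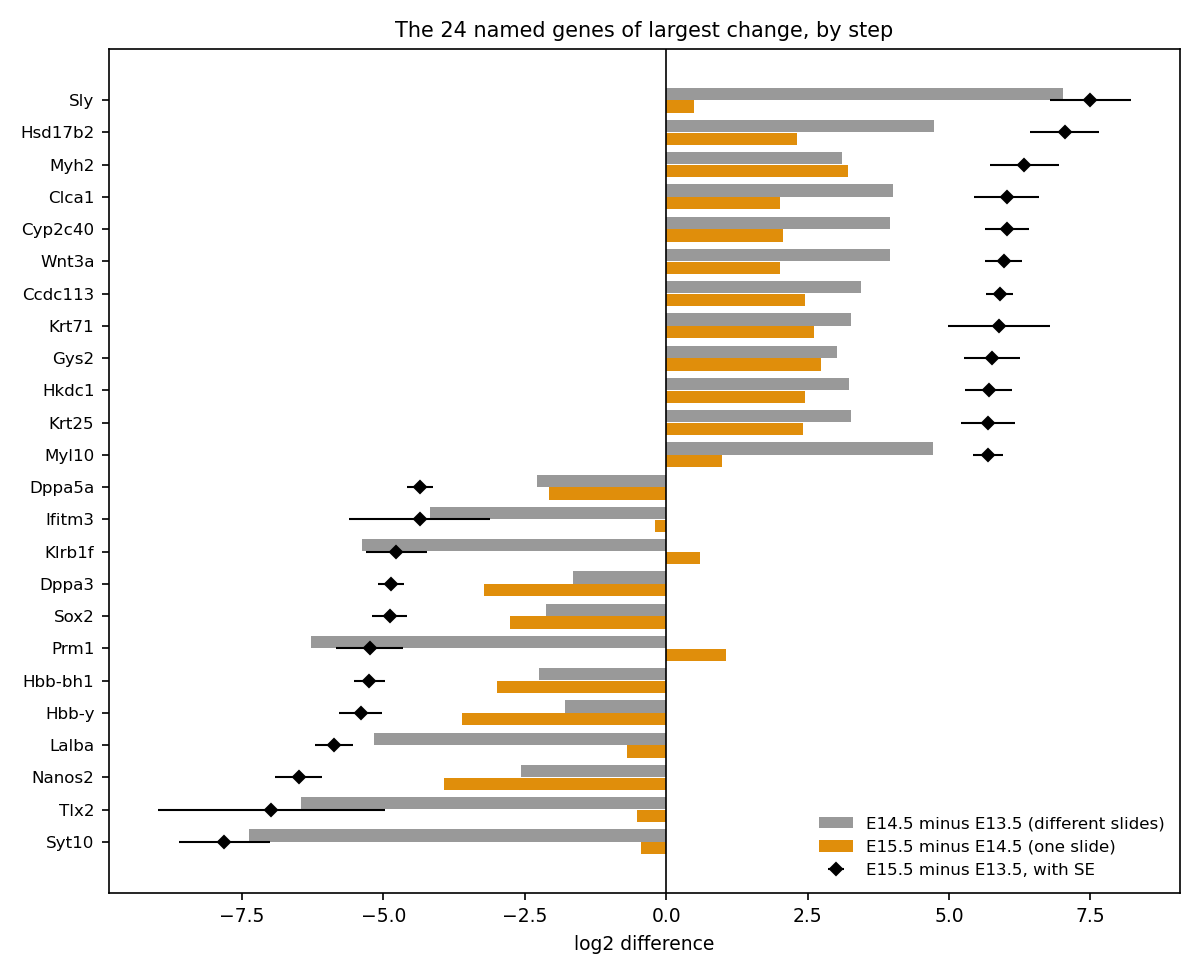
Log2 differences of the 12 higher and 12 lower named genes of largest change, with the E14.5 minus E13.5 step across slides in grey, the E15.5 minus E14.5 step within slide 3 in orange, and the E15.5 minus E13.5 difference with its standard error as black diamonds. Nanos2, Dppa3, Sox2, Hbb-y and Hbb-bh1 fell by more in the second step, whereas for Syt10, Tlx2, Lalba, Prm1, Klrb1f and Ifitm3 the first step holds nearly the whole difference.

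Among the called genes with a symbol that rose most, Sly, a Y-linked gene of spermatids with many near copies, was at -4.97 and -5.83 at E13.5, at 2.57 and 0.65 at E14.5 and at 1.87 and 2.33 at E15.5 (log2 7.5 ± 0.72, limma adjusted p = 0.00160). Which copies its probe measures was not tested. Hsd17b2, which inactivates oestradiol and testosterone, was not well above background at E13.5 and was at -0.44 and 0.14 at E15.5, at least 54.2-fold higher. Ccdc113, a protein of cilia, rose from -4.22 and -4.21 through -0.94 and -0.60 to 1.51 and 1.84 (log2 5.90 ± 0.24), and was also called within slide 3.

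Fast muscle myosin Myh2 rose by log2 6.33 ± 0.61, with 4.74 and 8.90 at its other probes, and the chloride channel regulator gene Clca1 by 6.02 ± 0.58. Lower bounds were 10.5-fold for the myosin light chain gene Myl10, 13.7-fold for the cytochrome gene Cyp2c40, 15.5-fold for the ligand gene Wnt3a and 18.0-fold for liver glycogen synthase, Gys2. The hair follicle keratin genes Krt71 and Krt25 were at least 27.7-fold and 16.3-fold higher, and Krt71 was not called without E15.5 array 2 (limma adjusted p = 0.0541). Hkdc1, a hexokinase, rose by 5.70 ± 0.41.

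Changes that continued within slide 3 were counted as genes called in E15.5 against E13.5 and, in the same direction, in E15.5 against E14.5. The E15.5 arrays enter both comparisons. There were 142 such genes (0.646% of all tested), 123 higher (0.559%) and 19 lower (0.0864%), out of 144 called within slide 3 (0.655%), 123 higher and 21 lower (0.0955%). Of the genes called higher over 2 days, 1816 (60.8%) had both E15.5 arrays above both E14.5 arrays, 1090 overlapped and 81 lay below. Of those called lower, 1158 (48.1%) lay below on both arrays, 1149 overlapped and 102 lay above. Over all genes tested, 19.8% had both E15.5 arrays above and 16.6% below those of E14.5. The median difference of the genes called higher was 1.49 over 2 days and 0.46 within slide 3, and that of the genes called lower was -1.21 and -0.26.

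The continuing count depended on single arrays. It was 29 with E15.5 array 1 dropped, 73 and 76 with E13.5 array 1 or 2 dropped, and 74 with either E12.5 array dropped. It was 0 by limma without E15.5 array 2 or without either E14.5 array, where 907, 1702 and 1352 genes passed an unadjusted p of 0.05 in both comparisons with the same sign (1657 with all arrays).

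Among the continuing falls, a gene known by the array's identifier AK017277 went from -1.03 and -0.37 at E13.5 through -3.73 and -3.66 at E14.5 to below background at E15.5. It was at least 29.9-fold lower in all and at least 3.75-fold lower within slide 3. The others of large fall included germ cell and globin genes already named, Nanos2 (log2 -3.93 within slide 3), Hbb-y (-3.61), Dppa3 (-3.23), Hbb-bh1 (-3.00), Nanos3 (-2.94) and Sox2 (-2.77). Fam163a was at -1.46 and -1.02 at E13.5, at -1.87 and -2.53 at E14.5 and at -4.95 and -5.0 at E15.5.

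Continuing rises were led by genes that were dim at both earlier stages. The 8 of largest log2 change passed the filter only through their E15.5 arrays, so it favoured a rise for them. Among probes above background on all 8 arrays, 22 genes continued in either direction, against 142 here. Within slide 3, Ngp was at least 8.03-fold and Slc6a2 at least 4.21-fold higher, since neither was well above background at E14.5. There were also 2 hair keratin genes among the 8 of largest log2 change. Krt33a was at -7.96 and -8.14 at E13.5, at -6.38 and -6.01 at E14.5 and at -2.91 and -2.08 at E15.5, at least 10.7-fold above E13.5, and Krt26 was at least 3.64-fold above it. The identifiers AK081945 and AF047714 were at least 4.38-fold and 3.43-fold higher than at E13.5, and 2 more of the 8 had no symbol. These 4 genes without a symbol and Slc6a2 lost their calls over 2 days both under plain normexp and under normexp with extreme backgrounds replaced, where they were at log2 0.03 to 0.68.

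Within slide 3 the other 2 called genes, Il9 and a gene without a symbol, were not called over 2 days. Il9, an interleukin gene, was at -7.97 and -7.81 at E13.5, at -5.42 and -5.62 at E14.5 and at -7.53 and -7.28 at E15.5, and was well above background on 0 arrays of E13.5 and E15.5. Cryba1, a lens crystallin gene, and Gm136 also turned, from -6.26 and -5.31 through -7.29 and -7.16 to -4.39 and -3.76 for Cryba1. In all, 4 genes were called one way between E13.5 and E14.5 and the other way between E14.5 and E15.5.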

How the data were processed

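Each array was hybridised with Cy3-labelled cRNA of a sample of whole male gonads. The deposited intensity values are, per the file headers, scanner signals after background subtraction and spatial detrending, and no between-array scaling is stated there. Agilent Feature Extraction 9.5 is named in the submitters' processing notes, and the file headers name 9.1.3.1 for E12.5 and E13.5 and 9.5.3.1 for E14.5 and E15.5. The authors' deposited series table holds a linear ratio per probe and stage, whose centring is unknown; its column medians were 1 for E13.5 and 0.859 for E15.5, and it served for direction alone. In the authors' deposited table all 5396 called genes had the direction reported here. That table combines the same arrays, so the shared direction is not independent of the calls.

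From the 45018 spots of an array, 43379 were not controls and gave 41174 probes, of which 22951 (55.7%) had 1 symbol, 0 several and 18223 none. Log2 signal minus the array's 75th percentile was used, and a probe was kept if both arrays of any stage were well above background, which left 28188 probes and, at the probe of highest mean, 21986 genes, 13474 with a symbol. Limma 3.58.1 in R 4.3.3 fitted 4 stage means on all 8 arrays (residual df 4, prior df 2.57, median standard error 0.27), with Benjamini-Hochberg adjustment over all genes. The number of arrays limits the precision. A fold written "at least" sets the bright stage's mean against a floor for the dim stage, per array the dim probe's own signal or, if higher, the dimmest signal of any probe well above background. The fit was also run on simulated arrays with independent noise and no slide differences. Because the real arrays differ in both respects, that run cannot show how far the calls hold here. Some list members are not reported here by name, though list counts and sums include those tested.

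Members and the 30 gene lists were chosen with earlier results of these data known. Named were the 12 higher and 12 lower called genes of largest change with a symbol, the 8 continuing genes of largest change in each direction, up to 4 called members per direction of each list, a fixed set of testis, blood and cell cycle genes, and up to 6 genes that turned; further members named in the text were chosen after their values were seen. Piwil4, Csf1r, Hbb-b1 and Mki67 of the fixed set had no probe with that symbol. Alternatives covered the background, scaling, filter, probe choice, arrays in the fit, slide, array number and leaving out each array. Median signals replaced mean signals in the normexp alternative. Slide as a fixed block could not be fitted, since no slide holds both stages. Differences between array 1 and array 2 correlated across genes at 0.03 between E13.5 and E15.5, at 0.646 between E12.5 and E13.5, where the number is the slide, and at -0.589 between E14.5 and E15.5, so the numbers were not taken as pairs.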

Additional observations from a re-analysis of the deposited data

How the results depend on the processing

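The count of genes called for E15.5 against E13.5 stayed within 1.5 times of 5396 under 11 alternatives (3614 without a filter on dim probes to 6769 with normexp and extreme backgrounds replaced), and was 116 with plain normexp, where 3 local backgrounds of E13.5 array 2 were extreme; the cause was not tested. Leaving out an array gave 1378 to 5681 called genes. Against 142 continuing genes, 225 were called with extreme backgrounds replaced, 22 among probes above background on all 8 arrays, 87 with the replicate block, 0 by limma with plain normexp (219 at an unadjusted p under 0.05) and 0 with only the arrays compared (1620), where fewer samples estimate the spread. Leaving out an array gave 0 to 76. The replicate block, whose numbers are only a shared number, gave 4517 called genes, and numbers exchanged for E15.5, chosen after seeing the data, gave 6492 and 127 continuing genes. Scaling to array medians moved the median of all genes to -0.11.

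With plain normexp the direction turned for Bhmt (-0.08), Casq1 (-0.70), Cd53 (-0.73), Cryba1 (-0.90), Dhh (0.22), Dmc1 (-0.01), Gm136 (-1.12), Hemgn (-0.69), Hey2 (-0.45), Il9 (-1.80), Krt26 (-0.64), Lhcgr (-0.25), Lhx2 (-0.06), Pecam1 (-0.14), Pnmt (-0.21), Ptprc (-0.78), Slc6a2 (-0.85), Snap25 (-0.66), Spo11 (-0.34), Ttn (-0.62), AF047714 (-0.81), AK081945 (-0.72) and 2 other genes without a symbol (-1.36 and -0.99), the cause not tested. Other turns were Il9 with extreme backgrounds replaced (-0.49, chosen after seeing the data), Ddx4 (-0.01) and Insl3 (-0.02) with median scaling, Dhh with quantile scaling (0.06) and Maf over all its probes (0.28). Leaving out an array gave -0.12 to 0.33 for Insl3, -0.48 to 0.12 for Dhh, -0.24 to 0.47 for Ddx4 and -0.86 to 0.06 for Gli1. Of 134 called genes among the 150 named, 56 stayed called under all left-out arrays and 19 kept call and direction in every setting that gave a value. Dim genes, 586 called higher without signal above background at E13.5, have a bound rather than a fold.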
